A study of Rattus norvegicus with 35 samples.

Results

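The bacteria described here are 62 features of the 16S ribosomal RNA gene that recurred in both rat colon and rat faeces without being among the most abundant ones. A feature was a member if it had reads in at least 5 of 18 colon libraries and at least 5 of 17 faecal libraries, and 71 of the 1073 features in the table met these counts. The 9 of them with the highest mean shares in the whole table, ranks 1 to 9, were set aside, so the members begin at rank 10 and reach down to rank 258. Members were thus chosen by their measured reads in colon and in faeces, so that their presence in both compartments is a description and carries no test. Members are called here by their own rank of mean share over all 35 libraries, from 1 for the highest to 62 for the lowest. The table identifies features by a 32-character code and pairs none with a bacterial name or a sequence, so neither is given.

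The 16S gene is carried by all bacteria, and its variable stretches differ between taxa, so that reads of an amplified stretch can be sorted into features that stand for close groups of bacteria. The large bowel houses the densest bacterial community of the body. Faeces carry the community that leaves the lumen, whereas a colon sample can also hold bacteria that live close to the gut wall. A feature read in both was found in samples of both sites. Its share says how much of the amplified 16S product it made up, not how many cells there were.

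The libraries came from Rattus norvegicus and formed 4 groups: colon of control rats (n = 10), colon of shocked rats (n = 8), faeces of control rats (n = 9) and faeces of shocked rats (n = 8). Shocked rats had received footshocks, a way to model post-traumatic stress disorder, and the study asked whether that model is suited to work on gut and brain. The labels used here name no strain, sex, age, number of shocks or time of sampling. Control libraries carried the numbers 1 to 10 and shocked libraries 11 to 18 in either compartment; a faecal library of number 9 was not analysed. Nothing in the labels ties a number to 1 animal or a library to an animal of its own, so the spread behind each p-value is that between libraries and may be technical.

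Depth ranged from 448 to 16155 reads in colon and from 4703 to 24251 in faeces. Colon control 8 and colon shocked 12 and 17 held fewer than 1000 reads. Both libraries numbered 1 stood apart over the members. Faeces control 1 held reads of only 2 members, those of ranks 14 and 29 (named for this after their values were seen), which made up 1.85% and 8.94% of its reads. Colon control 1 was at a mean Bray-Curtis distance (0 for the same make-up, 1 for nothing in common) of 0.408 from the faecal control libraries of other numbers, the lowest such mean among the 17 colon libraries whose number also had a faecal library. For the other control colon libraries that mean includes faeces control 1. The sums, the counts of members read, the footshock calls, the same-number differences in sum and the same-number correlations are also given without number 1. The distances between numbers are not given wholly without faeces control 1.

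Together the 62 members, 5.78% of all features, held 34.5% of all reads. Control colon had a summed share of 30.5% ± 10.1 of its reads (SD, n = 10) and shocked colon one of 33.98% ± 6.96 (SD, n = 8). Control faeces had 32.1% ± 10.2 (SD, n = 9) and shocked faeces 37.1% ± 6.14 (SD, n = 8). In control colon the sum ran from 9.25% in library 8 through a median of 32.5% to 43.9% in library 9. Shocked colon ran from 22.5% in library 11 through a median of 33.95% to 43.3% in library 18. Control faeces ran from 10.8% in library 1 through a median of 35.1% to 42.5% in library 10, and shocked faeces from 29.0% in library 12 through a median of 36.1% to 44.0% in library 17. All 4 groups thus overlapped over most of their range. Without faeces control 1 the mean of control faeces was 34.8% ± 6.77 (SD, n = 8). No test was made on these sums, since they are sums over chosen features. The 9 features set aside took 37.5% of colon reads and 36.7% of faecal reads on average, against means of 32.04% and 34.5% for the 62 members.

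**Figure D1:**
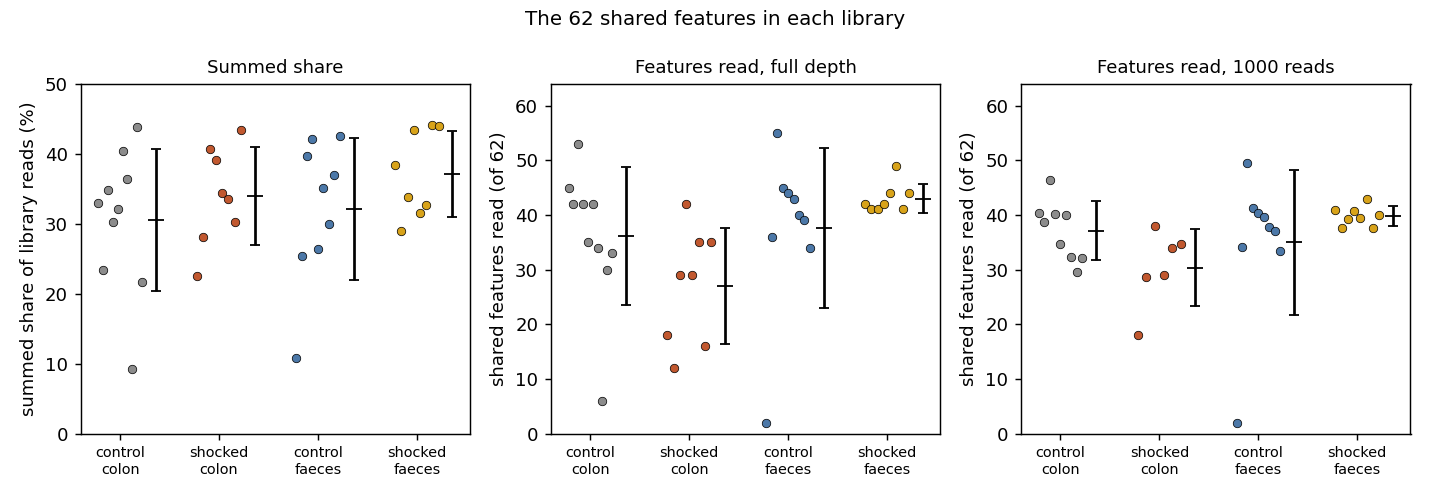
Summed share of the 62 shared features (left, percent of library reads) and number of them read at full depth (middle) and after thinning to 1000 reads (right), with 1 point per library and bars for mean ± SD in each of the 4 groups. The sums overlap between groups, and the low points are colon control 8 (9.25%, 6 features) and faeces control 1 (10.8%, 2 features).

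The number of members a library held was lowest in shocked colon and highest in shocked faeces, which were also the shallowest and the deepest groups on average, at 2717 and 13214 reads. At full depth 36.2 ± 12.6 of the 62 were read in a control colon library (SD, n = 10), 27.0 ± 10.6 in a shocked one (SD, n = 8), 37.6 ± 14.7 in a control faecal library (SD, n = 9) and 43.0 ± 2.73 in a shocked one (SD, n = 8). After thinning every library to 1000 reads, which leaves out the 3 shallower ones, the numbers were 37.1 ± 5.33 (SD, n = 9), 30.4 ± 7.02 (SD, n = 6), 34.99 ± 13.2 (SD, n = 9) and 39.8 ± 1.80 (SD, n = 8) in the same order. Without faeces control 1, control faeces held 39.1 ± 5.01 members at 1000 reads (SD, n = 8). Shocked faeces were the most even group, with 41 to 49 members at full depth and 20 members read in all 8 libraries. In control faeces 1 member was read in all 9 libraries, and 19 were when library 1 is left out. No member was read in all 18 colon libraries. These counts describe chosen features and were not tested.

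The members were unequal in share and in how often they were read. Mean shares over all libraries ran from 1.86% at rank 1 to 0.0324% at rank 62, with a median of 0.379%, and the 10 highest made up 41.9% of the members' summed mean share. Only 9 of the 62 averaged at least 1% over all libraries, although 49 exceeded 1% in at least 1 library and 7 exceeded 5%. A member was read in 10 to 32 libraries, with a median of 18.5, and 24 of the 62 had a median share of 0. Over the libraries that held a member, its median share ran from 0.0741% to 1.83% between members, with a median of 0.545%. At the limit of the rule, the 8 members read in exactly 5 colon libraries had mean shares of 0.0782% to 0.612%, and the 15 features left out with 4 colon libraries had 0.0456% to 0.482%. In faeces, the 8 members at 5 libraries had 0.0324% to 0.332% and the 4 features left out with 4 libraries had 0.0514% to 0.292%.

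**Figure D2:**
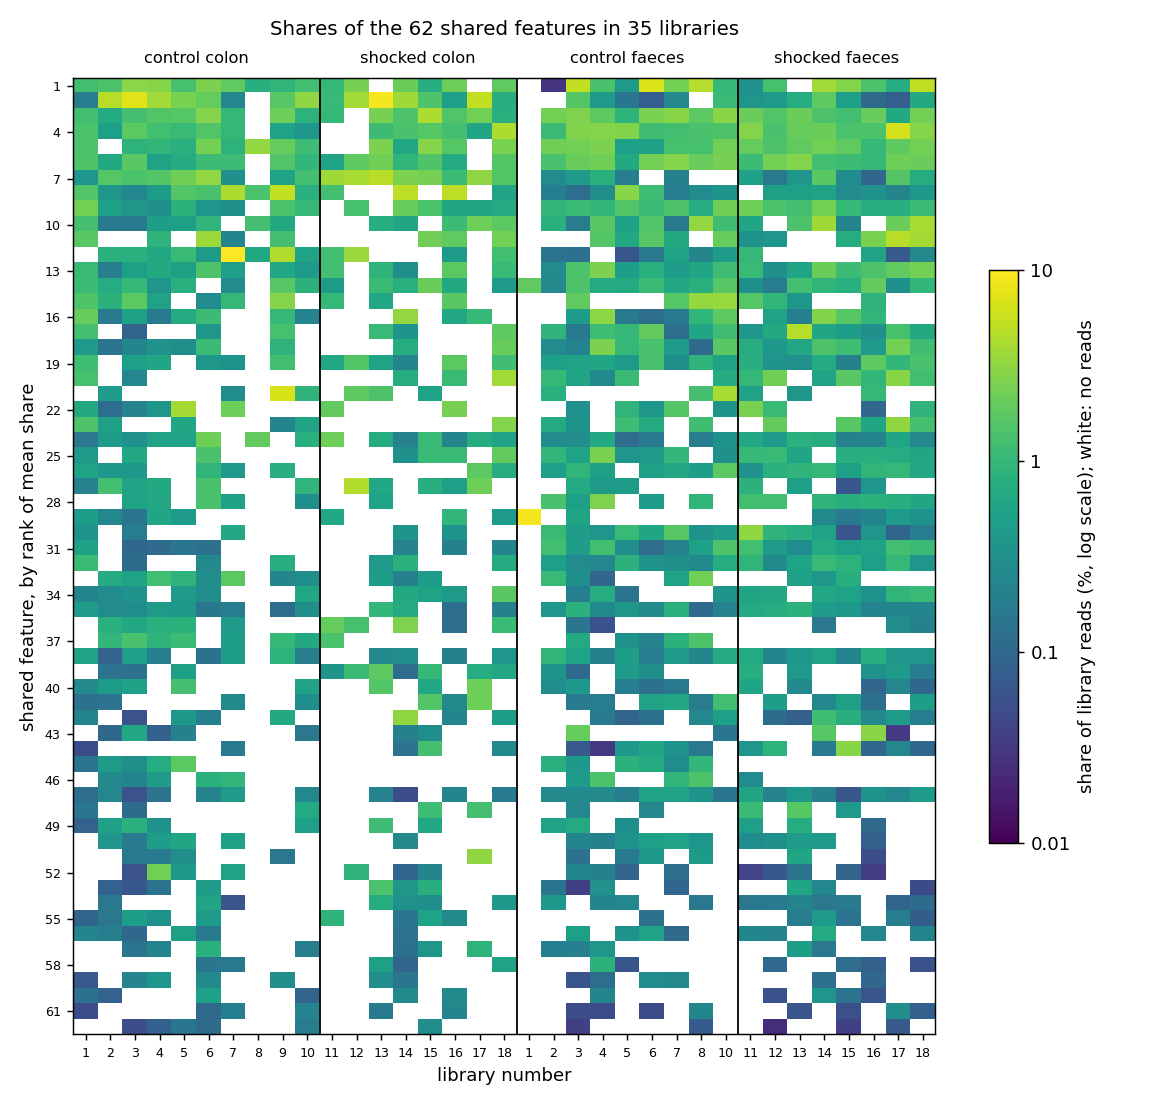
Share of library reads (colour, percent on a log scale, white for no reads) of the 62 shared features (rows, by rank of mean share) in 35 libraries (columns, by group and number). The upper rows are filled in nearly every library, the lower rows are patchy, and faeces control 1 and colon control 8 are nearly empty, with 2 and 6 features read.

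The steadiest members were those of ranks 3 and 6, each read in 32 of 35 libraries. At rank 3, control and shocked colon had mean shares of 1.31% ± 0.771 (SD, n = 10) and 1.72% ± 1.30 (SD, n = 8), and control and shocked faeces had 1.98% ± 0.990 (SD, n = 9) and 1.68% ± 0.561 (SD, n = 8). Rank 6 had 0.985% ± 0.524, 1.16% ± 0.740, 1.78% ± 0.925 and 1.73% ± 0.679 in the same groups (SD, same n). The SD over all libraries was 0.559 and 0.558 of the mean, the lowest of any member, against a median of 1.44 over the 62. The ranges of the 4 groups overlapped for both.

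Ranks 1, 4, 5, 9 and 10 were of the same kind with more spread. Rank 1, 7b28c20e72c6c95b3e604f0849245770, was read in all 10 control colon libraries at 0.784% to 3.03% and in 6 of 8 shocked colon libraries at up to 2.46%. In faeces it was read in 8 of 9 control libraries at up to 6.71% and in 7 of 8 shocked libraries at up to 5.14%. Its means of 1.54% ± 0.896 in colon (SD, n = 18) and 2.20% ± 2.15 in faeces (SD, n = 17) were within the spread of either. The mean shares of ranks 4, 5, 9 and 10 were 0.661% to 1.33% in colon and 1.23% to 2.05% in faeces, and each was read in 27 to 31 libraries. Rank 4 owed its highest values to number 18 in shocked colon (4.23%) and number 17 in shocked faeces (6.20%).

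Ranks 2, 7 and 8 leaned to colon. Rank 2, bf498cfaeb096c98a2b15108a88c6f15, averaged 2.84% ± 2.54 in colon (SD, n = 18), the highest colon mean of any member, and 0.480% ± 0.539 in faeces (SD, n = 17). Its shares ran from 0 to 7.10% in control colon (median 2.21%), from 0.495% to 9.14% in shocked colon (median 2.59%), from 0 to 1.56% in control faeces (median 0.151%) and from 0.0781% to 1.79% in shocked faeces (median 0.455%). Rank 7 averaged 2.003% ± 1.39 in colon (SD, n = 18) and 0.436% ± 0.518 in faeces (SD, n = 17). Rank 8 averaged 1.62% ± 1.89 in colon (SD, n = 18) and 0.494% ± 0.690 in faeces (SD, n = 17). Colon control 1 lay low for ranks 2 and 7, at 0.186% and 0.378%, near the faecal medians of 0.366% and 0.283%. It was not alone in this, as colon control 7 was at 0.245% and 0.319% and colon control 8 had no reads of either. At rank 8 colon control 1 was at 1.55%, near the colon mean.

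Set against each other, 36 members had the higher mean share in faeces and 26 in colon, and 27 differed by over 2-fold in mean share, 13 towards colon and 14 towards faeces. The largest ratios towards colon were at rank 36 (0.598% in colon against 0.0516% in faeces, 11.6-fold), rank 12 (1.56% against 0.213%, 7.34-fold) and rank 2 (5.92-fold). Rank 12 rested on colon control 7, where it reached 12.3%, the highest share of any member in any library, against a colon median of 0.635%, and its ratio was 4.36-fold without that library. Towards faeces the largest ratios were at rank 31 (0.684% in faeces against 0.0926% in colon, 7.39-fold), rank 30 (0.713% against 0.105%, 6.79-fold) and rank 43 (0.396% against 0.0925%, 4.29-fold). Without faeces shocked 16, where rank 43 reached 2.92%, its ratio was 2.58-fold. Ranks 30 and 31 were read in 16 of 17 faecal libraries and in 5 and 8 of 18 colon libraries. In an edgeR fit over all 127 features tested, 14.2% were called for compartment at an adjusted p under 0.05, and 3 of the 62 members were, ranks 2 and 36 towards colon and rank 31 towards faeces. Without 1 library, rank 2 kept its call in 35 of 35 fits, rank 36 in 20 (edgeR adjusted p 0.0181 to 0.0836) and rank 31 in 12 (0.0135 to 0.0984). Since reads in the compartments chose the members, nothing is drawn from this count. Over the 62 members, Spearman's rho between mean share in colon and in faeces was 0.587, a description across features that share their libraries. Of the 10 members with the highest mean in each compartment, 6 were the same.

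The rule counted reads over both treatments together and named neither, but a member could meet it through 1 treatment alone. That was so for ranks 45 and 46 in colon and ranks 45 and 37 in faeces, whose reads in that compartment all lay in control libraries. They are also the members called for footshock there, and since they could be tested only through the group in which they were higher, their calls are given as descriptions and support no general statement on the members. In colon, 2 of the 62 members were called lower in shocked rats and 0 higher (edgeR's quasi-likelihood F test with an adjusted p under 0.05 over all 95 features tested, 8.42% of which were called). In faeces 2 were called lower and 0 higher, where 1.48% of all 135 features tested were called, these same 2. Both counts moved with single libraries. In colon, 0 members were called without control 2, 3 or 4 or shocked 13, 15, 16, 17 or 18, 1 without control 1, 5, 6 or 7, 3 without shocked 11 and 4 without shocked 14. In faeces, 1 was called without control 1, 3, 7 or 8 or shocked 16, and 3 without shocked 11. At an unadjusted p under 0.05 there were 3 members in colon, against 9.47% of all features, and 2 in faeces, against 4.44%. The members' counts in colon were thus a smaller share of the 62 than the calls were of all features. In faeces the adjusted count was a larger share of the 62 and the unadjusted count a smaller one. All of these counts are small, and nothing is drawn from them. All 62 passed the filter of reads in at least 25% of a fit's libraries, which the rule of 5 libraries per compartment already ensures. The median fitted log2 change, shocked minus control, was -0.19 over the members and -0.40 over all features in colon, and 0.23 and 0.31 in faeces. With library totals alone in place of TMM scaling, the colon medians were 0.07 and 0.02. The sign of the colon median thus depends on the scaling.

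Rank 45, 141ddb34f78140905a869674af245c1b, was called lower in shocked rats in both compartments, and in both all of its reads lay in control libraries. It was read in control colon 1 to 5, at 0.142%, 0.435%, 0.303%, 0.726% and 1.76%, and had no reads in control colon 6 to 10 or in any of the 8 shocked colon libraries (edgeR adjusted p = 0.0292). In control faeces its shares were 0.794%, 0.392%, 0.843%, 0.698%, 0.284% and 0.964% in libraries 2, 3, 5, 6, 7 and 8, and 0 in libraries 1, 4 and 10, while all 8 shocked faecal libraries were at 0 (edgeR adjusted p = 0.0334). Every shocked library was thus at 0, and control libraries were either at 0 or above 0.14%. Counted by number, 8 of 10 control numbers held it in at least 1 compartment, 3 of them (2, 3 and 5) in both, against 0 of 8 shocked numbers. The mean control share was 0.442% ± 0.393 in faeces (SD, n = 9), at least 15.9-fold above the mean floor of 3 reads in the shocked libraries (0.0278%). In colon the control mean of 0.337% ± 0.557 (SD, n = 10) was only at least 1.38-fold above that floor (0.244%), because shocked colon libraries were shallow. In 6 of the 8, 3 reads made up less than the control mean.

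The colon call of rank 45 was lost in several settings. After thinning to 1000 reads, which also leaves out the 3 shallowest libraries, edgeR gave a log2 change of -5.10 (adjusted p = 0.0569), and without those libraries alone -7.34 (adjusted p = 0.0891), against -7.00 with all libraries; why the call was lost was not tested. It was also not called by DESeq2 (adjusted p = 0.239) or by limma on centred log-ratios (adjusted p = 0.562). Leaving out any of the shocked colon libraries 13, 15, 16, 17 or 18 gave an edgeR adjusted p of 0.0511 to 0.0564. Without any of the 5 control colon libraries that held it, it fell under the filter and was not tested. The faecal call was made in all 8 alternative settings that tested it (edgeR, DESeq2 or limma adjusted p 0.000347 to 0.0469). Leaving out libraries under 1000 reads, 1 of the 8, removes no faecal library, and another, no filter, called 475 of all 846 features. It was also made in all 17 fits that each left out 1 library (edgeR adjusted p up to 0.0478). These fits reuse the control reads through which rank 45 could be tested, and are no separate support for the call.

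Rank 37, 2a45bceb7b5b7b43c02fb8b32cb55a09, was called lower in shocked faeces. It was read in control faeces 3, 5, 6, 7 and 8 at 0.685%, 0.342%, 0.216%, 0.840% and 1.44%, and had no reads in control faeces 1, 2, 4 and 10 or in any of the 8 shocked faecal libraries (edgeR adjusted p = 0.0369). The control mean of 0.392% ± 0.504 (SD, n = 9) was at least 14.1-fold above the mean floor of the shocked libraries. The call was lost without faeces control 1, 3, 7 or 8 or faeces shocked 16 (edgeR adjusted p 0.0529 to 0.0621) and after thinning to 1000 reads (0.0824). Its faecal reads lay in 5 libraries, all control, the fewest with which a feature could meet the rule. In control colon it was read in libraries 2, 3, 4, 5, 7, 9 and 10 at 0.466% to 1.38%, and in shocked colon in library 11 alone, at 1.43%. That colon difference, 0.649% ± 0.510 (SD, n = 10) against 0.179% ± 0.506 (SD, n = 8), did not pass the test (edgeR adjusted p = 0.676). By number, 9 of 10 control and 1 of 8 shocked numbers held it in at least 1 compartment.

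Rank 46 was called lower in shocked colon. Its shares in control colon were 0.261%, 0.226%, 0.447%, 0.825% and 0.945% in libraries 2, 3, 4, 6 and 7, and it had no reads in control colon 1, 5, 8, 9 and 10 or in any shocked colon library (edgeR adjusted p = 0.0292). The mean of 0.270% ± 0.359 (SD, n = 10) was at least 1.11-fold above the mean floor of the shocked colon libraries, and its colon reads lay in 5 libraries, all control, as those of rank 45 did. This call was lost in the same settings as that of rank 45: after thinning (log2 change -4.60, edgeR adjusted p = 0.0569), without the libraries under 1000 reads (-7.22, 0.0891), with DESeq2 (0.239), with limma (0.562) and without shocked colon 13, 15, 16, 17 or 18 (0.0511 to 0.0564). In faeces it was read in control libraries 3, 4, 7 and 8 at 0.450% to 1.45% and in shocked library 11 at 0.282% (edgeR adjusted p = 0.983). The only shocked reads of ranks 37 and 46 thus lay in libraries of number 11, in colon for the first and in faeces for the second. Number 3 was the only one that held ranks 37, 45 and 46 in both compartments.

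**Figure D3:**
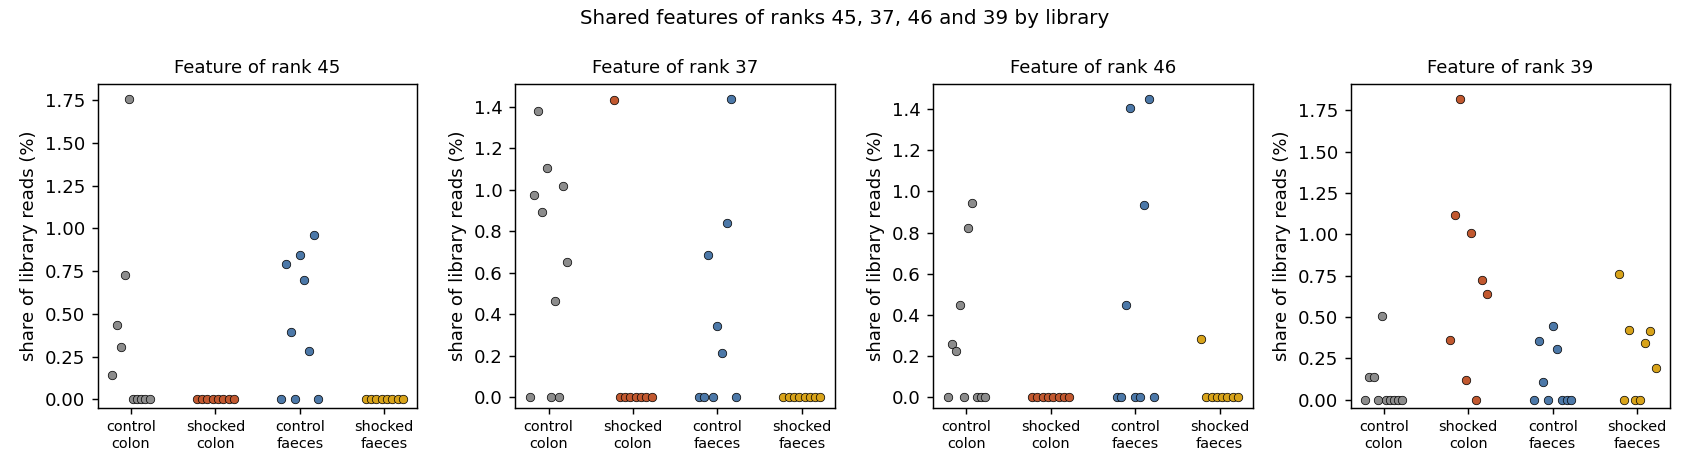
Share of library reads (percent, 1 point per library) of the shared features of ranks 45, 37, 46 and 39 in the 4 groups. Rank 45 is at 0 in all 16 shocked libraries, ranks 37 and 46 are above 0 in 1 shocked library each, and rank 39 is above 0 in 7 of 8 shocked and 3 of 10 control colon libraries.

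On the other side stood rank 39, ee9901248c4581c00c9099807940582f, which had the highest fitted change of any member in shocked colon without passing the test. It was read in 7 of 8 shocked colon libraries (0.117% to 1.82% where read, median over the group 0.680%) and in 3 of 10 control colon libraries (0.136% to 0.503% where read). The log2 change was 2.65 (edgeR adjusted p = 0.676), and limma on centred log-ratios called it at 3.75 (adjusted p = 0.0356). Its edgeR and DESeq2 values in the other settings were 2.44 to 3.17 and not called. Faeces held it in 4 of 9 control and 5 of 8 shocked libraries, with a log2 change of 0.81 (edgeR adjusted p = 0.983). Ranks 20 and 44 came next in colon, at log2 changes of 2.13 and 2.02 (edgeR adjusted p = 0.676 for both). The lowest after the called ones was rank 28, at -2.70 (edgeR adjusted p = 0.676), read in 5 of 10 control and 1 of 8 shocked colon libraries.

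In faeces the highest fitted changes were at ranks 55, 48 and 44, with log2 changes of 2.89, 2.65 and 1.84, each with an edgeR adjusted p of 0.983. Of the faecal libraries, 1 of 9 control and 5 of 8 shocked ones held rank 55, and 6 of 9 and 7 of 8 held rank 44. Rank 44 owed its shocked mean of 0.602% ± 0.992 (SD, n = 8) largely to library 15 at 2.96%, against a median of 0.207%. Rank 7, one of the abundant members, went from 1.26% ± 0.989 (SD, n = 10) in control to 2.94% ± 1.27 (SD, n = 8) in shocked colon, and from 0.214% ± 0.269 (SD, n = 9) to 0.685% ± 0.630 (SD, n = 8) in faeces, as means. It was read in all 16 shocked libraries and in 14 of 19 control libraries, and its log2 changes of 0.71 and 1.47 did not pass the test (edgeR adjusted p = 0.826 and 0.983). None of the 10 members with the highest mean share was called for footshock in either compartment.

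**Figure D4:**
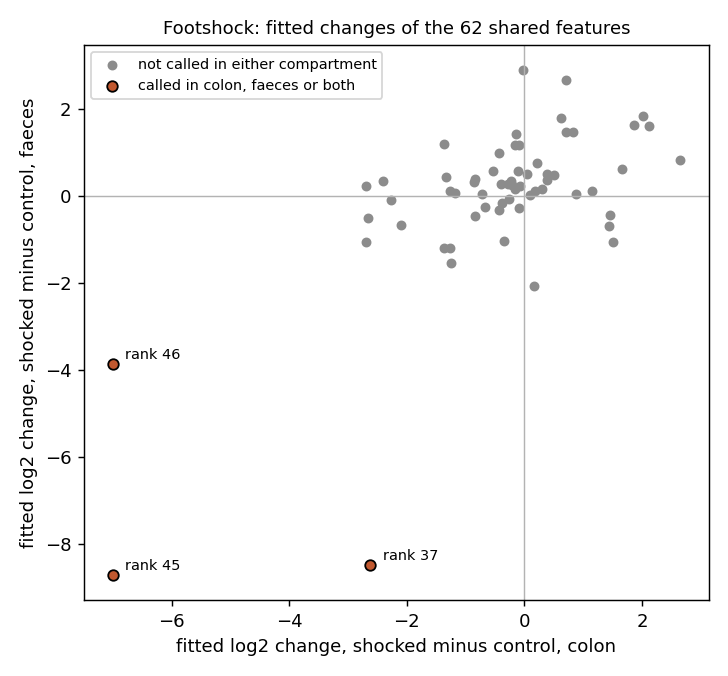
Fitted log2 change of the 62 shared features after footshock, shocked minus control, in colon (horizontal) and faeces (vertical), with 1 point per feature. Ranks 45, 46 and 37, called in at least 1 compartment, lie apart at the lower left, and their positions depend on the small count that edgeR adds where a group has no reads.

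Whether the response to footshock differed between the compartments was tested as an interaction over all 35 libraries. Of the 62 members 0 were called, where 0.0% of the 127 features tested were (edgeR, adjusted p under 0.05). At an unadjusted p under 0.05 edgeR found 1 member, rank 37 (log2 difference of the responses, faeces minus colon, -5.59, adjusted p = 0.221), against 10.2% of all features. DESeq2 and limma on centred log-ratios called 0 members as well. The calls of ranks 37 and 46 in 1 compartment are therefore not shown to differ from their values in the other.

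The next comparison asked whether the colon and the faecal library of a number resembled each other in the members, over the 17 numbers with both. On average 23.9 ± 12.9 members were read in both libraries of a number (SD, n = 17), 8.35 ± 9.98 in colon alone, 16.2 ± 10.3 in faeces alone and 13.5 ± 4.86 in neither. The overlap was largest at number 3, with 51 members in both of 53 in colon and 55 in faeces, and next at number 14, with 38 of 42 and 42, and number 18, with 35 of 35 and 44. It was smallest at number 1, with 2 members, at number 8, with 6, and at number 12, with 7. Depth moved with this only in part. Colon libraries 8 and 12 held 638 and 448 reads and colon library 3 held 15490. Against that, colon library 1 held 16155 reads, the most in colon, and colon library 18 held 2982. The part of depth in the overlap was not tested. The summed share was higher in faeces than in colon in 10 of 17 numbers, with differences from -22.2 points at number 1 to 27.7 points at number 8 and a mean of 3.11 ± 12.05 points (SD, n = 17). Without number 1 the mean was 4.69 ± 10.5 points (SD, n = 16).

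Measured over the members alone, each scaled to their sum, a colon library was at a Bray-Curtis distance of 0.581 ± 0.177 from the faecal library of its own number (SD, n = 17), and of 0.625 ± 0.120 on average from faecal libraries of other numbers in the same treatment. In 13 of 17 numbers its own number was nearer than that average, and in 7 it was the nearest of all in that treatment. For control numbers other than 1 the average includes faeces control 1, which held reads of only 2 members. The count of 13 was not made without that library, so it does not show how far own-number closeness rests on it. With number 1 dropped from the 17, the values were 0.558 ± 0.154 and 0.638 ± 0.110 (SD, n = 16). The second value still counts faeces control 1 among the other numbers of the control libraries. The closest were number 3 at 0.318 (0.593 to other numbers), number 18 at 0.349 (0.425) and number 14 at 0.384 (0.586). Number 1 was the farthest at 0.952. These distances describe chosen features and have no test.

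**Figure D5:**
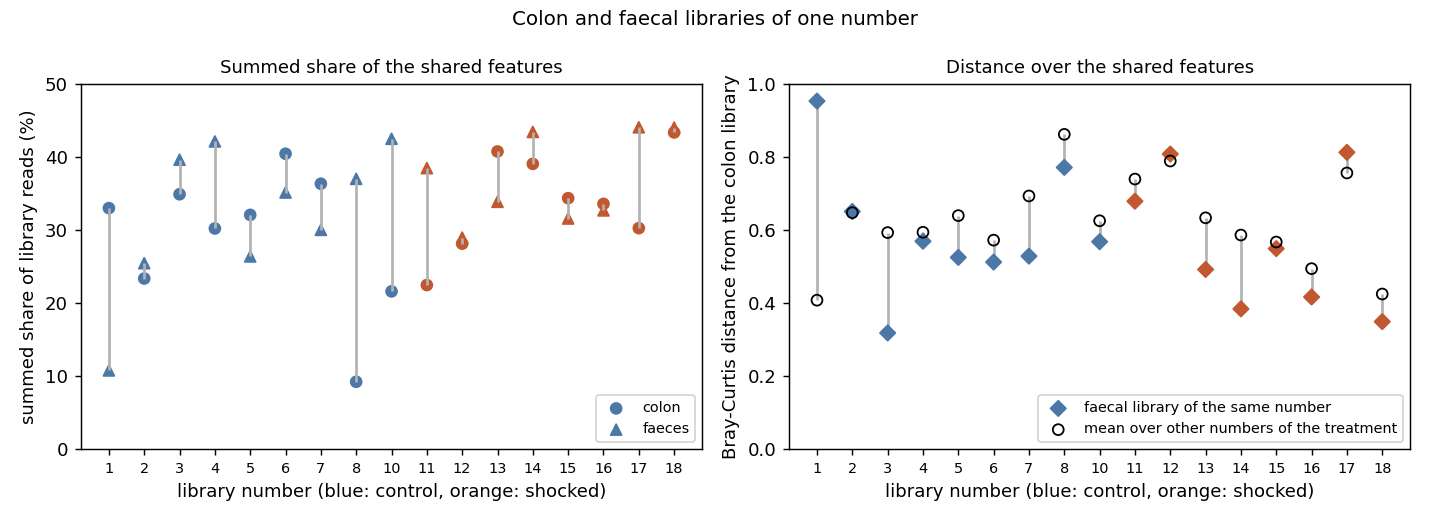
For each of the 17 numbers with a colon and a faecal library: summed share of the shared features in each (left, percent of library reads), and Bray-Curtis distance from the colon library to the faecal library of the same number and, on average, to those of other numbers in the same treatment (right, 0 to 1). The own number is the nearer in 13 of 17, with numbers 3 and 14 far below the average of the others and number 1 far above it. For control numbers other than 1 that average includes faeces control 1.

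Single members were then followed across the numbers. Of 127 features read in at least 3 colon and 3 faecal libraries of these numbers, 0.0% passed a permutation test of Spearman's rho after adjustment, and 0 of the 62 members did. At an unadjusted p under 0.05, 4 members did, against 5.51% of all features. The correlation was above 0 for 48 of the 62, with a median of 0.15 over the members and 0.14 over all 127 features. Without number 1 it was above 0 for 52 of the 62, with a median of 0.24, and 6 members had an unadjusted permutation p under 0.05, against 10.2% of the 108 features then tested, with 0 passing after adjustment. By Pearson's r of log2 shares over all 17 numbers, the correlation was above 0 for 38 of the 62, with a median of 0.18. By that measure 8 members had an unadjusted permutation p under 0.05, against 7.87% of all 127 features. After adjustment 1 of the 127 features passed (permutation adjusted p = 0.0165), and 0 members did. By Spearman's rho, rank 52 had the lowest p of the members, with rho = 0.638 and Pearson's r = 0.562 over 17 numbers (permutation p = 0.0114 and 0.0466, adjusted p = 0.611 and 0.417), rho being 0.880 in the 9 control and 0.280 in the 8 shocked numbers. Without the 2 numbers farthest from its median colon share, r was 0.416. For rank 1, rho was 0.518 and r was 0.472 (permutation p = 0.0309 and 0.0471, adjusted p = 0.611 and 0.417), with 0.483 and 0.455 for rho within controls and shocked, and r was 0.302 without numbers 3 and 13. Rank 53 had rho = 0.519 and r = 0.701 (permutation p = 0.0405 and 0.0331, adjusted p = 0.611 and 0.417), with 0.460 and 0.594 for rho within treatments, and r was 0.416 without numbers 13 and 15. None of these relations passes the adjusted threshold.

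Some members were read in the same libraries as each other. Over the 1891 pairs of members, Spearman's rho across the 35 libraries had a median of 0.07, with 72 pairs above 0.5 and 1 below -0.5. Ranks 17 and 32 had the highest value, 0.791, and were chosen here after their values were seen. They were read in exactly the same 23 libraries and in neither of the other 12: 4 control colon, 3 shocked colon, 8 control faecal and 8 shocked faecal libraries. Their reads did not keep 1 ratio, as rank 17 had 0.391 to 8.57 reads for each read of rank 32, with a median of 1.5. Within colon rho was 0.957 (n = 18) and within faeces 0.252 (n = 17). Ranks 2 and 7, both richer in colon, followed with 0.777 and shared 29 libraries. The lowest value was between rank 7 and rank 30, at -0.530, where rank 30 was the one read in 16 of 17 faecal and 5 of 18 colon libraries. Within a compartment it was -0.411 in colon and 0.04 in faeces. These are descriptions across libraries that share compartments, depth and a fixed total, and have no test.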

How the data were processed

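The values are raw read counts of each 16S feature in each library, as the authors deposited them, and the file header says that the table was made from a biom file. Per the labels' protocols the V3-V4 stretch of extracted DNA was amplified and sequenced with Illumina's MiSeq. The submitters' processing notes name cutadapt, a read trimmer; the sources used here give neither its version nor the tool that formed the features. The lowest count above 0 is 2, so detection means at least 2 reads. Counts were turned into shares of a library's reads. A floor is 3 reads of a library's total and covers counting error only, since PCR reads are not independent molecules.

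Counts were tested with edgeR 4.0.16 in R 4.3.3 (quasi-likelihood F test, TMM, features read in at least 25% of a fit's libraries, adjusted p under 0.05 over all features tested). Footshock was tested within each compartment, the interaction and compartment over all 35 libraries. Same-number relations were tested by 100000 shuffles of faecal libraries within treatment. Alternatives were DESeq2 1.42.0, limma 3.58.1 on centred log-ratios, other scalings and filters, thinning to 1000 reads (100 draws for counts of members, 1 for fits) and libraries left out. The edgeR step was also run on simulated counts with known changes in both directions, the outcome of which is not given here. That simulation did not set features to 0 in a whole group, the pattern of the members called for footshock, and so does not bear on those calls. Named features were the 10 highest in mean share, those called, the 3 at either end of each footshock fit, the 3 with the lowest same-number p and the 3 with the largest compartment ratios in each direction. Codes are printed for at most 2 per direction, and features outside this rule are said to be so. Members, lists and alternatives were chosen with earlier results of these data known. Deviations of same-numbered libraries from their group means had a correlation above 0.1 in 9 of 17 numbers. The median was 0.103 and the lowest -0.245, and no test was made.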

Additional observations from a re-analysis of the deposited data

Results flagged for a closer look

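Over 13 measures in 4 groups, 52 sets of libraries were searched for a highest or lowest library lying far from the others, and 8 held one. The limit used is one that about 1 in 20 sets would pass by chance if values were normally distributed. That was not checked for these shares and counts, and some sets share libraries, so the true rate is not known. Colon control 8 held reads of 6 members where the next lowest control colon library held 30, at 638 reads in all. Faeces control 1 held 2 members at full depth and 2 at 1000 reads, where the next lowest control faecal libraries held 34 and 33.5. Faeces shocked 16 held 49 members, against at most 44 in the other shocked faecal libraries, and was 1 of the 2 deepest libraries of its group. Rank 4 made up 4.23% of colon shocked 18 and 6.20% of faeces shocked 17, with next values of 1.63% and 2.83% in their groups. Rank 8 made up 2.97% of faeces control 5, against at most 1.17% in the other control faecal libraries. Rank 2 made up 1.79% of faeces shocked 14, against at most 0.712% in the rest of that group.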

How the results depend on the processing

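The number of members called for footshock in colon was 2, both lower in shocked rats. It became 0 by DESeq2, with a filter at 50% of libraries, after thinning to 1000 reads or without libraries under 1000 reads. It became 1 without the libraries numbered 1. Limma on centred log-ratios also called 1, but that member was rank 39, higher in shocked colon, and neither of the main calls was kept. In faeces the number called was 2, and became 0 with the filter at 50%, which removes both called features. It became 1 after thinning or without the libraries numbered 1. Between compartments it was 3, and became 6 by DESeq2, 10 by limma, 5 with the filter at 50%, 8 after thinning, 5 without the libraries numbered 1 and 8 with the library number as a replicate block; over all features that block gave 31 calls against 18, no filter 414, limma 29, the filter at 50% 11 and leaving out number 1 33. By the correlation of deviations from group means over 127 features, a measure other than the distance over members, the own number was the best match in 5 of 17 numbers. That match was sought among all 17 faecal libraries of either treatment, and the number expected by chance was not worked out. The numbers were not taken as pairs, so the main compartment and interaction fits counted same-numbered libraries as separate. No filter also raised all calls for footshock to 304 of 598 in colon and 475 of 846 in faeces, where members called were 2 and 3; in colon limma gave 2, and DESeq2, thinning and leaving out libraries under 1000 reads gave 3 each, against 8. For the interaction, no filter gave 10 calls over all features and DESeq2 2, against 0 with edgeR, with 0 members in each. Leaving out 1 library gave 0 to 4 members in colon, 1 to 3 in faeces, 1 to 4 between compartments and 0 to 0 for the interaction and the same-number relation. Mean sums then ran over 29.0% to 32.9% (control colon), 32.6% to 35.6% (shocked colon), 30.8% to 34.8% (control faeces) and 36.1% to 38.3% (shocked faeces), and members read over 34.3 to 39.6, 24.9 to 29.1, 35.4 to 42.0 and 42.1 to 43.3. Members read in shocked faeces moved from 43.0 to 53.5 with a rule of 4 libraries (84 members), 37.1 with 6 (48 members) and 39.8 at 1000 reads. The causes of these moves were not tested, apart from fewer features or libraries under a filter. The floor of 3 reads was 0.0124% to 0.670% of a library. The ratios without single libraries were chosen after seeing the data.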
